A study of Mus musculus with 24 samples.

Results

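Mouse oocytes that overexpressed Hdac3 and were exposed to polystyrene microplastics (PSMPs & OE-Hdac3, 2 libraries) were compared with oocytes exposed in the animal (in vivo PSMPs, 2 deposited columns). The members of the comparison are these 4 columns, of 12 RNA columns and 24 samples in the series. They were described across the 11946 genes with at least 10 counts in all 4 columns, of 55401 genes in the file and 16736 genes in the fit. Gene expression was measured by RNA sequencing of pools of 5 oocytes, with 4 further groups of 2 libraries: controls (con), controls in culture (con-in vitro), oocytes exposed in culture (in vitro PSMPs) and oocytes treated with SAHA, an inhibitor of histone deacetylases. No strain, age, dose or time is given in the labels used here. They also do not say how Hdac3 was overexpressed, whether the overexpressing oocytes met the particles in the animal or in culture, or whether an injected or cultured control exists for them. Overexpression, handling and route of exposure therefore cannot be told apart in this comparison.

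Hdac3 is a class I histone deacetylase, an enzyme that removes acetyl groups from histone tails, and it acts as the catalytic subunit of the NCoR and SMRT corepressor complexes. A fully grown mouse oocyte transcribes little, so its mRNA content reflects what was stored during growth and what has since been degraded. Deacetylation of histones, including histone H4 at lysine 16, accompanies the meiotic maturation of the oocyte, which is driven by cyclin B and Cdk1 and held at its second arrest by the Mos and MAPK pathway.

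The overexpressing libraries held 9.81 M and 7.03 M counts and 20957 and 20422 detected genes, against 30.5 M counts and 17722 and 17730 genes in the in vivo PSMPs columns. These last columns were closer to each other than counting noise allows for separate libraries (chi-square per degree of freedom 0.444, with equal counts in 15.6% of genes, against 16.5 for the overexpressing pair). They were therefore averaged and counted as 1 sample, whose spread was assumed to be that of the other groups. A count of 10 was worth 0.651 and 0.909 CPM (counts scaled to the library total with TMM factors) in the overexpressing libraries and 0.258 CPM in in vivo PSMPs. In the fit, 2187 further genes were under 10 counts in an overexpressing column only, 639 in an in vivo PSMPs column only and 1964 in both groups. At the edge of the rule, 210 genes had a lowest count of 9 and 138 a lowest count of 10, and their median levels were 0.995 and 1.07 CPM in the overexpressing mean and 0.773 and 0.825 CPM in in vivo PSMPs. Separate animals are not named in the labels as the source of replicates, so a p-value here measures only how these libraries spread. Floors cover counting error only.

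Hdac3 (ENSMUSG00000024454.16, mm10 chromosome 18, 37935844 to 37955016) was measured at 336 CPM in PSMPs & OE-Hdac3 library 1 and at 228 CPM in library 2. In in vivo PSMPs it was measured at 12.7 CPM, and in in vitro PSMPs at 15.3 and 9.37 CPM. Both overexpressing libraries thus lay above all other libraries, of which the highest was a con library at 37.4 CPM, and they stood at 26.5 and 18.0 times the in vivo PSMPs level. The fitted difference was log2 4.48 ± 0.68 (SE), which did not pass the test with all groups in the fit (adjusted p = 0.105, edgeR's quasi-likelihood test with Benjamini-Hochberg adjustment over 16736 genes). Against in vitro PSMPs, a comparison that uses the same overexpressing libraries, the difference was log2 4.51 ± 0.50 and passed (adjusted p = 0.0084).

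Trim21 (ENSMUSG00000030966.13, mm10 chromosome 7, 102557921 to 102565486) encodes a cytosolic antibody receptor and ubiquitin ligase. It had 36859 and 18338 counts in the overexpressing libraries and 0 in both in vivo PSMPs columns, so it is not among the described genes. Its level was 2398 and 1668 CPM against less than the floor of 3 counts (0.0773 CPM), which made it at least 26287-fold higher. In in vitro PSMPs Trim21 was at 7.70 and 6.22 CPM, and the overexpressing mean was 292 times their mean. It stood at 1.02 and 0.227 CPM with SAHA and at 0.313 and 0 CPM in con, and no count was found in either con-in vitro library. The difference from in vivo PSMPs had an adjusted p of 0.105, and that from in vitro PSMPs passed, with log2 8.19 ± 1.10 and an adjusted p of 0.0121. Per kilobase of gene model, Trim21 stood at 646 and 449 CPM, rank 28 and 51 of the 16736 genes in the fit. Hdac3 stood at 82.8 and 56.3 CPM, rank 405 and 676. Trim21 was thus more abundant in these libraries than Hdac3, the gene named in the label. The labels used here do not say whether Trim21 RNA was introduced, and the source of its level was not tested.

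**Figure D1:**
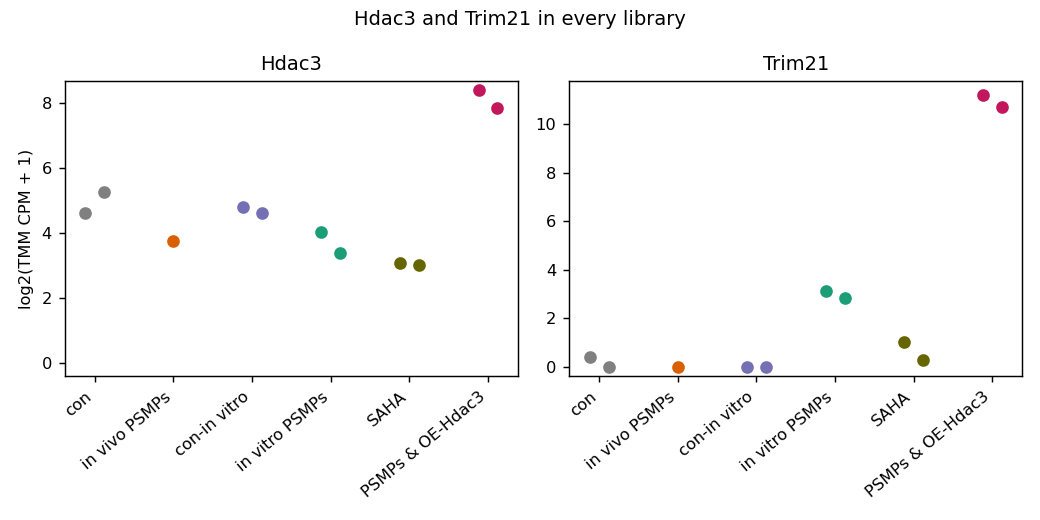
Level of Hdac3 (left) and Trim21 (right) in every library, as log2(CPM + 1) on the vertical axis, with groups along the horizontal axis and 1 point per library. The PSMPs & OE-Hdac3 points, at 336 and 228 CPM for Hdac3 and 2398 and 1668 CPM for Trim21, lie above those of every other group.

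Trim21 is among the genes that interferon can induce, and promoters of such genes often hold an interferon-stimulated response element. The region around its start was therefore set beside those of Isg15, Ifit1 and Bst2, classical genes of the same response, in windows of 130 bases from RefSeq (GRCm38.p6). They are printed 5′ to 3′ on the strand of the gene, with each match to GAAA followed by any 2 bases and GAAA again, on either strand and with overlaps allowed, in capitals. The Trim21 window is chr7:102565453-102565582, minus strand, and its matches begin 14 bases after the start. The other windows are Isg15 at chr4:156200819-156200948, minus strand, Ifit1 at chr19:34640759-34640888, plus strand, and Bst2 at chr8:71537493-71537622, minus strand, with matches beginning 78, 104 and 130 bases before the start.
Trim21: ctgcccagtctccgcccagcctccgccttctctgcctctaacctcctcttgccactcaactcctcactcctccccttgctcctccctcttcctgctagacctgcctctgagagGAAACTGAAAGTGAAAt
Isg15: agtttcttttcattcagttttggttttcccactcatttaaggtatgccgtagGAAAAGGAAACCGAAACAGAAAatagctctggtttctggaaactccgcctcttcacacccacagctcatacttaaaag
Ifit1: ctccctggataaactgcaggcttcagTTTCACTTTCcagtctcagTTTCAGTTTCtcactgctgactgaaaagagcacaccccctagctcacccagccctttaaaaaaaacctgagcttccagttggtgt
Bst2: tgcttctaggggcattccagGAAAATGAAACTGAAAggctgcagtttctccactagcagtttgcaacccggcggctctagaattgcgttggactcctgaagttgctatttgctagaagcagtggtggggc
In windows from 250 bases before to 50 bases after a start, 1131 of 32851 (3.44%) held the motif, as did those of 10 of the 23 genes with a window in a list of foreign RNA sensing and interferon response. A match describes the letters only.

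The other genes of that response did not share the level of Trim21. Of 32 genes in the list, 8 had 0 counts in all 4 columns, 20 were under 10 counts in both overexpressing libraries, and 11 reached 10 counts in all 4. Isg15, a ubiquitin-like modifier, had 2 and 0 counts in the overexpressing libraries and 0 and 0 in in vivo PSMPs, and Ifit1, which binds foreign RNA, had 2 and 3 against 0 and 0. Bst2, a membrane tether of viruses, was at 2.99 and 1.46 CPM against 1.34 CPM. None of the 11 passed, and their median log2 difference was 0.29. Tlr3, a receptor of double-stranded RNA, was at 0.976 and 1.64 CPM against 36.7 CPM (log2 -4.81 ± 1.97, adjusted p = 0.315), and Cgas, a DNA sensor, at 77.4 and 66.8 CPM against 38.6 CPM (log2 0.90 ± 0.49, adjusted p = 0.46). Among 28 other measured Trim ubiquitin ligases the median log2 difference was 0.16, with 2 at least 2-fold higher and 3 at least 2-fold lower in both overexpressing libraries. Of these Trim36 stood at 20.6 and 22.8 CPM against 55.7 CPM, and Trim35 at 15.8 and 11.8 CPM against 43.4 CPM.

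Across genes, the overexpressing libraries were close to each other and differed widely from in vivo PSMPs. The median absolute log2 ratio between them was 0.251, with 95% of genes within 2-fold, while it was 0.796 and 0.765 from either of them to in vivo PSMPs, with 59.8% and 61.7% within 2-fold. With 1 averaged library on one side, no gene passed the test (percent called 0, 0 of 16736, lowest adjusted p = 0.105, shared by 24 genes). At an unadjusted p of 0.05, edgeR's quasi-likelihood test gave 1215 genes higher and 1192 lower in the fit, of which 394 and 923 were among those described. At an adjusted p of 0.05, DESeq2's Wald test called 870 genes. The count of 0 did not hold without a con library. Without con replicate 1 edgeR's test called 243 genes, without con replicate 2 it called 529, and without both, an alternative added after the data were seen, it called 495. Hdac3 then had adjusted p of 0.0351, 0.0249 and 0.0243, and Trim21 of 0.00675, 0.00765 and 0.00809, by edgeR's quasi-likelihood test.

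Because none passed, genes were described by a level rule that is no test. Both overexpressing libraries lay above in vivo PSMPs for 49.4% of the described genes and below it for 39.3%. Both were at least 2-fold higher for 2181 genes (18.3%) and at least 2-fold lower for 1634 (13.7%), and 8131 met neither. Counts in the gene lists below are to be set beside these shares. Higher genes were of low abundance in in vivo PSMPs, with a median of 2.89 CPM against 11.9 CPM in the overexpressing mean, and lower genes were abundant, with 63.7 CPM against 17.1 CPM. Fitted differences passed 4-fold for 863 of the former and 514 of the latter. Both classes were set by the ratio to this same in vivo PSMPs library, so part of their contrast in abundance follows from the rule. A gene between 0.258 and 0.651 CPM in in vivo PSMPs could be described only if both overexpressing libraries were higher. The shares of higher and lower genes are therefore not on an equal footing. The median log2 difference was 0.15 over described genes. Over all genes in the fit it was 0.23 with TMM factors, 0.36 with DESeq2's size factors and 0.53 with library totals, so that differences are best read relative to these medians. The medians of gene lists given below shift with the scaling in the same direction. A change of their sign with library totals or DESeq2's size factors need not be a change relative to all genes.

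**Figure D2:**
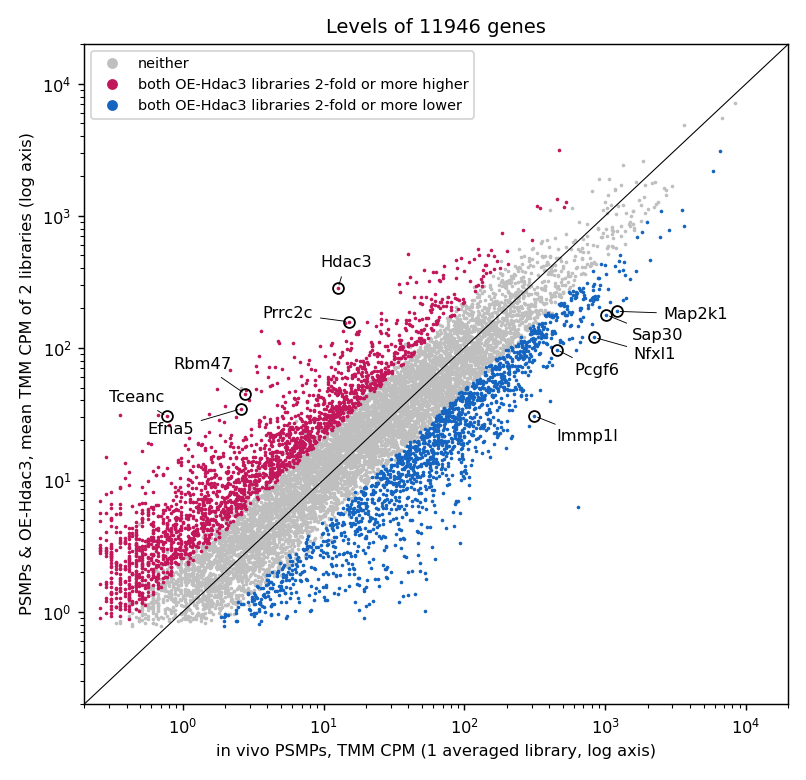
Level of each of the 11946 described genes in in vivo PSMPs (horizontal, CPM, log axis) and averaged over the 2 PSMPs & OE-Hdac3 libraries (vertical, CPM, log axis), with the line of equality. Colours mark the 2181 genes at least 2-fold higher and the 1634 at least 2-fold lower in both overexpressing libraries, and circles the 5 named genes of smallest p in each direction.

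Among described genes, which leave out Trim21, those of smallest p with higher levels were Rbm47, Efna5, Hdac3, Prrc2c and Tceanc, each at an adjusted p of 0.105. Rbm47 (chromosome 5, 66016549 to 66173118), an RNA-binding cofactor of mRNA editing, stood at 56.1 and 33.1 CPM against 2.78 CPM in in vivo PSMPs (log2 4.00 ± 0.53). Efna5, a ligand of Eph receptors (chromosome 17, 62604184 to 62881317), stood at 38.5 and 30.6 CPM against 2.60 CPM (log2 3.73 ± 0.51). Prrc2c (chromosome 1, 162670725 to 162740556), an RNA-binding protein of stress granules, was at 170 and 144 CPM against 15.3 CPM (log2 3.36 ± 0.52). Tceanc, which holds a domain of transcription elongation factors (chromosome X, 166499812 to 166518567), was at 40.3 and 20.1 CPM against 0.773 CPM (log2 5.28 ± 0.81). For each of these genes both overexpressing libraries lay far above in vivo PSMPs, by more than they differed from each other. The choice by smallest p favours such genes, so this adds no support to them.

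The other groups placed these genes differently. In in vitro PSMPs, Efna5 was at 39.1 and 44.3 CPM, Prrc2c at 150 and 294 CPM and Tceanc at 18.0 and 30.0 CPM, so the overexpressing libraries lay near those levels. The difference of in vitro from in vivo PSMPs, which shares the in vivo PSMPs library, passed for Efna5 (log2 4.00, adjusted p = 0.018), Prrc2c (log2 3.86, adjusted p = 0.0223) and Tceanc (log2 4.94, adjusted p = 0.0401), in a comparison where 0.723% of genes passed. Rbm47 stood at 10.1 and 14 CPM in in vitro PSMPs, and its overexpressing level was above that (log2 1.89 ± 0.36, adjusted p = 0.0215), in a comparison that called 4.83% of genes, 1.85% of them upward. The con-in vitro libraries exceeded all others for each but Hdac3, with 1294 and 1368 CPM for Rbm47, 589 and 806 CPM for Efna5, 9025 and 10274 CPM for Prrc2c, and 914 and 759 CPM for Tceanc. These con-in vitro libraries held only 6.22 M and 6.40 M counts and 11832 and 11640 detected genes.

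Among described genes with lower levels, Sap30 had the smallest p. Sap30 (chromosome 8, 57482707 to 57487860), a subunit of the SIN3 corepressor that carries Hdac1 and Hdac2, stood at 181 and 174 CPM against 1017 CPM in in vivo PSMPs (log2 -2.52 ± 0.35). Immp1l, a subunit of the inner membrane peptidase of mitochondria (chromosome 2, 105904638 to 105965558), stood at 31.5 and 29.5 CPM against 313 CPM (log2 -3.36 ± 0.46). Pcgf6, a Polycomb subunit (chromosome 19, 47033617 to 47050906), was at 97.7 and 96.1 CPM against 452 CPM (log2 -2.22 ± 0.32). Map2k1, the kinase above MAPK in the arrest pathway (chromosome 9, 64185770 to 64253631), was at 183 and 195 CPM against 1206 CPM (log2 -2.67 ± 0.39). Nfxl1, a zinc finger protein (chromosome 5, 72513301 to 72559684), was at 127 and 113 CPM against 834 CPM (log2 -2.80 ± 0.41). Each had an adjusted p of 0.105 by edgeR's quasi-likelihood test. In each the overexpressing libraries were nearly equal, which the choice by smallest p favours.

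Of these, 3 were also lower than in in vitro PSMPs. There Sap30 stood at 539 and 706 CPM (log2 -1.81 ± 0.30, adjusted p = 0.0158), Immp1l at 231 and 327 CPM (log2 -3.19 ± 0.42, adjusted p = 0.0113) and Pcgf6 at 337 and 280 CPM (log2 -1.67 ± 0.28, adjusted p = 0.0158), in a comparison where 2.98% of genes passed downward. Map2k1, at 406 and 536 CPM, gave log2 -1.32 with an adjusted p of 0.0603, and Nfxl1, at 152 and 238 CPM, log2 -0.70 with an adjusted p of 0.308. For Sap30, Pcgf6 and Nfxl1 no other library was as low, though a SAHA library was near for Nfxl1, at 149 CPM. Immp1l was at 37.1 and 22.1 CPM in con-in vitro, on either side of the overexpressing libraries. Map2k1 was at 203 and 189 CPM in con-in vitro, near the overexpressing level.

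**Figure D3:**
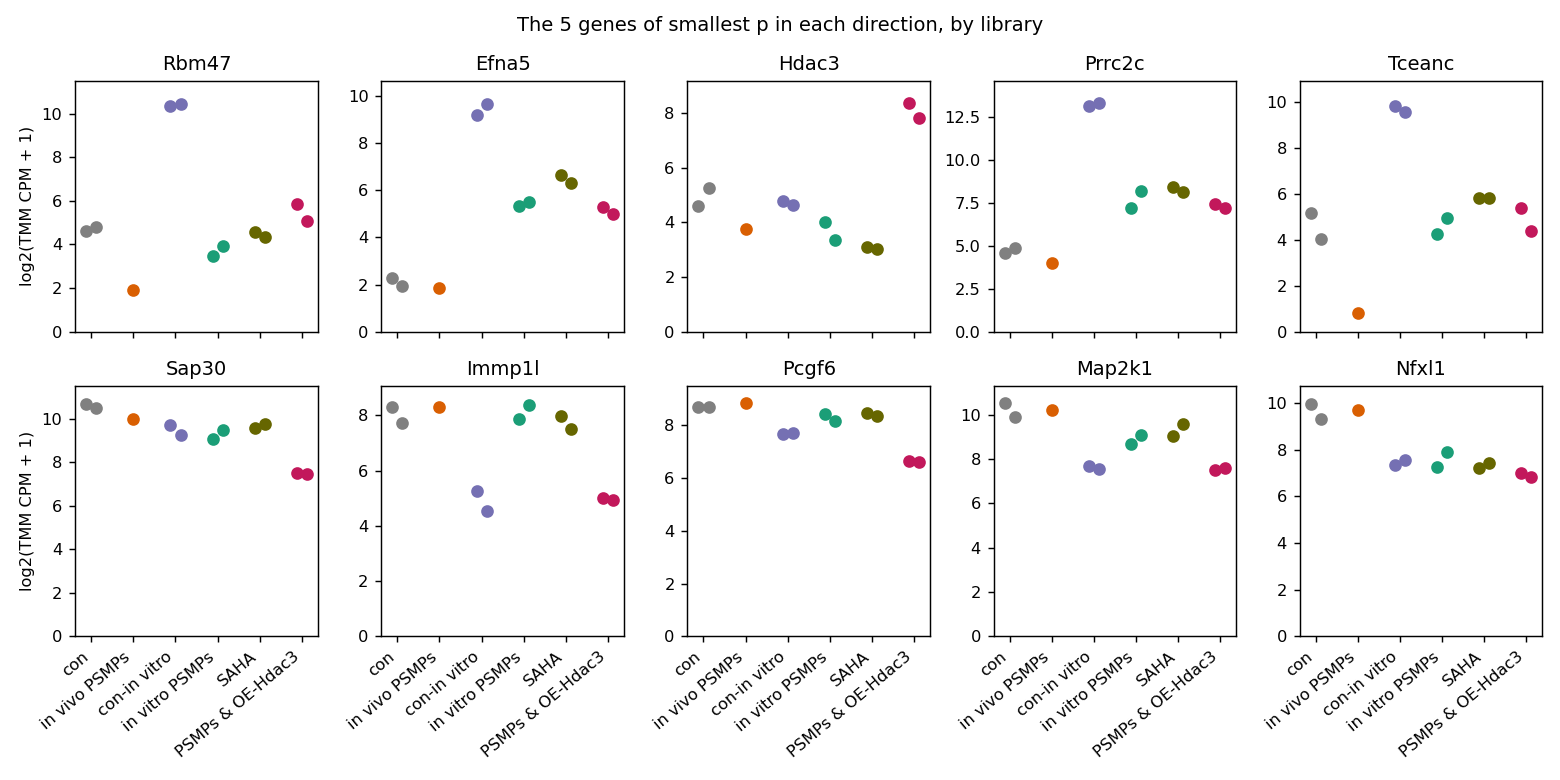
Level of the 5 genes of smallest p with higher (upper row) and lower (lower row) levels, as log2(CPM + 1) on the vertical axes, with 1 point per library and the in vivo PSMPs columns averaged. The con-in vitro points of Rbm47, Efna5, Prrc2c and Tceanc are the highest of their panels, and the PSMPs & OE-Hdac3 points of Sap30, Pcgf6 and Nfxl1 the lowest.

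Of the other histone deacetylases, Hdac4 and Hdac7 were at least 2-fold higher in both overexpressing libraries and Hdac9 at least 2-fold lower, and none passed. Of class I, Hdac2 was at 51.9 and 46.3 CPM against 98.9 CPM (log2 -1.01 ± 0.71, adjusted p = 0.604), Hdac1 at 6.57 and 2.27 CPM against 2.37 CPM, and Hdac8 at 12.9 and 12.5 CPM against 7.58 CPM. The overexpressing libraries of Hdac1 lay on both sides of in vivo PSMPs. Among class II and IV genes, Hdac4 was at 22.7 and 16.6 CPM against 2.01 CPM (log2 3.28 ± 1.31, adjusted p = 0.307), while in vitro PSMPs held 8.19 and 24.7 CPM of it. Hdac6, which deacetylates tubulin, was at 25.2 and 20.4 CPM against 15.1 CPM, and Hdac9 at 1.37 and 1.36 CPM against 2.91 CPM. Hdac7 was at 0.911 and 1.18 CPM against 0.387 CPM and Hdac11 at 2.02 and 0.909 CPM against 0.877 CPM. Hdac10, at 0.456 and 0.455 CPM against 0.387 CPM, was under the count rule, and Hdac5 did not pass the expression filter. The standard error of each but Hdac2 was above 1 on the log2 scale. Of the 6 measured sirtuins, NAD-dependent deacylases, 1 was at least 2-fold higher and 0 lower, with Sirt6 at 43.2 and 30.4 CPM against 19.6 CPM and Sirt1 at 42.5 and 55.2 CPM against 17.6 CPM.

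These enzymes work in corepressor complexes. Of 6 measured NCoR and SMRT subunits, the complex of Hdac3, 3 were at least 2-fold higher in both libraries and 0 lower, with a median log2 difference of 0.92. The higher share was 50%, of few genes, against 18.3% of all described genes. Kdm4a, a histone demethylase found with NCoR, was at 28.6 and 25.7 CPM against 3.51 CPM (log2 2.95 ± 1.18, adjusted p = 0.306), and Ncor1, its scaffold, at 68.3 and 57.0 CPM against 26.5 CPM (log2 1.24 ± 0.72, adjusted p = 0.492). The summed level of the list (here and below, over its genes in the fit) was 197 and 196 CPM against 118 CPM in in vivo PSMPs, but 374 and 573 CPM in in vitro PSMPs. Of 25 NuRD, SIN3 and CoREST subunits, 6 were at least 2-fold higher (24%) and 2 lower (8%), near the shares of all described genes (median log2 0.20). Besides Sap30, Ing1, a SIN3 subunit, was at 289 and 249 CPM against 119 CPM (log2 1.17 ± 0.43, adjusted p = 0.273). No gene of these lists passed.

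On the side of acetylation, Kat8 (MOF), the acetyltransferase of histone H4 lysine 16, was at 152 and 172 CPM against 116 CPM (log2 0.48 ± 1.17, adjusted p = 0.967). Its complexes had 12 measured genes, 2 at least 2-fold higher and 1 lower, with a median log2 difference of 0.11. Msl3 was at 45.7 and 38.8 CPM against 126 CPM (log2 -1.57 ± 0.41, adjusted p = 0.189), and it was lower than in in vitro PSMPs, at 164 and 267 CPM (log2 -2.35, adjusted p = 0.0132). Phf20 was at 412 and 338 CPM against 151 CPM (log2 1.31 ± 0.44, adjusted p = 0.25). Of 24 other acetyltransferase genes, 6 were at least 2-fold higher and 4 lower (median log2 0.26). Among them were Crebbp, at 275 and 209 CPM against 49.5 CPM (log2 2.29 ± 0.48, adjusted p = 0.159), and the coactivator Ncoa1, at 48.0 and 29.6 CPM against 5.31 CPM (log2 2.87 ± 0.62, adjusted p = 0.159).

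Genes listed around Cdk1 and the Mos and MAPK pathway, activators and inhibitors alike, lay below in vivo PSMPs more often than above it. Of 25 measured genes around cyclin B and Cdk1, 3 were at least 2-fold higher (12%) and 6 lower (24%), with a median log2 difference of -0.68. Among all described genes these shares were 18.3% and 13.7%. Pde3a, the phosphodiesterase that ends the cAMP block of the oocyte, was at 102 and 98.7 CPM against 410 CPM (log2 -2.03 ± 0.47, adjusted p = 0.162), and in vitro PSMPs held 49.2 and 110 CPM. Prkar1a, a regulatory subunit of protein kinase A, was at 46.9 and 41.6 CPM against 156 CPM (log2 -1.82 ± 0.42, adjusted p = 0.162) and passed against in vitro PSMPs, at 132 and 223 CPM (log2 -2.0, adjusted p = 0.0208). The Mos and MAPK list, of 14 genes, had 2 higher and 4 lower (median log2 -0.54), among them Map2k1 and Dusp1, a MAPK phosphatase, at 83.2 and 67.6 CPM against 271 CPM (log2 -1.84 ± 0.42, adjusted p = 0.162). Dusp1 was lower than in in vitro PSMPs as well (log2 -1.67, adjusted p = 0.0362).

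The lists of chromosome segregation genes did not share a direction. Of 31 genes of the anaphase-promoting complex and spindle checkpoint, 4 were at least 2-fold higher and 7 lower, with a median log2 difference of -0.03 that turned to 0.10 with DESeq2's size factors and 0.27 with library totals. Cdc26, at 11.3 and 10.3 CPM against 73.8 CPM, and Anapc1, at 61.1 and 51.6 CPM against 197 CPM, are subunits of that complex (adjusted p = 0.162 and 0.163). Of 14 genes of the Aurora kinases and chromosomal passenger complex, 1 was higher and 2 lower (median log2 -0.43). In both libraries 4 of them lay above in vivo PSMPs and 8 below. The cohesin Rad21 was at 62.7 and 67.5 CPM against 268 CPM and Sgo2a, a protector of centromeric cohesin, at 18.4 and 16.5 CPM against 97.0 CPM. Tubulins and spindle motors, with 30 genes, had 4 higher and 3 lower (median log2 0.06). Tubg2, a gamma-tubulin, was at 61.4 and 65.0 CPM against 184 CPM, and Kif23, a kinesin of cytokinesis, at 406 and 350 CPM against 824 CPM. Actin nucleators and positioning genes, with 24, had 2 higher and 5 lower, and the sign of their median log2 (-0.02) changed with DESeq2's size factors (0.11) and library totals (0.28).

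Within the actin list, Arf6, a small GTPase of the cortex, stood apart. It was at 369 and 268 CPM against 56.4 CPM in in vivo PSMPs (log2 2.50 ± 0.54, adjusted p = 0.159), and at 13.3 and 12.4 CPM in in vitro PSMPs, from which the overexpressing libraries differed past the threshold (log2 4.63, adjusted p = 0.00775). It therefore lay above both exposed groups, but in con-in vitro it reached 8747 and 7735 CPM, far above the overexpressing libraries. Rhoa, a GTPase of the contractile ring, was at 72.9 and 46.8 CPM against 14.2 CPM, but near the 53.3 and 57.8 CPM of in vitro PSMPs.

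Maternal products typical of the oocyte were present in both groups and lay lower in the overexpressing libraries more often than higher. Of 16 oocyte markers, 0 were under 10 counts in either group, 2 were at least 2-fold lower and 0 higher (median log2 -0.38), and their summed level was 16681 and 19727 CPM against 25576 CPM. Oosp1, a secreted oocyte protein, was at 1054 and 1144 CPM against 3522 CPM, and the growth factor Bmp15 at 932 and 1178 CPM against 1920 CPM (log2 -0.86 ± 0.36, adjusted p = 0.315). Zona pellucida and sperm receptor genes, 8 in number, had 1 higher and 3 lower (median log2 -0.91). Astl, the protease that hardens the zona after fertilisation, was at 266 and 233 CPM against 588 CPM, and Zp3, the zona protein, at 912 and 923 CPM against 1790 CPM. Subcortical maternal complex and Nlrp genes had 0 of 21 higher and 6 lower (28.6%, against 13.7% of all described genes), with a median log2 of -0.50. Khdc1c was at 41.1 and 33.8 CPM against 188 CPM and Khdc1a at 53 and 41.8 CPM against 172 CPM. Both genes were lower still in in vitro PSMPs, at 7.86 and 13.1 CPM and at 15.1 and 21.2 CPM. In bulk libraries, fewer cells of a type and less RNA per cell cannot be told apart.

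Among 31 oocyte transcription factors and growth factors, 1 was at least 2-fold higher and 5 lower. Their median log2 of -0.30 was 0.0040 with library totals, where that of all genes in the fit went from 0.23 to 0.53. Foxo3, which restrains follicle activation, was at 908 and 570 CPM against 186 CPM (log2 1.99 ± 0.43, adjusted p = 0.159) and higher than in in vitro PSMPs, at 107 and 103 CPM (log2 2.82, adjusted p = 0.0107). It reached 21473 and 22548 CPM in con-in vitro. Bcl2l10, a Bcl2 family gene abundant in oocytes, was at 2049 and 2348 CPM against 5860 CPM (log2 -1.41 ± 0.36, adjusted p = 0.187), and lower than in in vitro PSMPs, at 5437 and 7922 CPM (log2 -1.60, adjusted p = 0.0225).

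Genes that store or clear maternal mRNA split in both directions. Of 29 clearance genes, 7 were at least 2-fold higher and 3 lower (median log2 0.25), and those of smallest p were lower. Cnot7, a deadenylase, was at 180 and 224 CPM against 669 CPM (log2 -1.73 ± 0.37, adjusted p = 0.159), and against 1455 and 2100 CPM in in vitro PSMPs it passed (log2 -3.14, adjusted p = 0.0084). Dcp1a, of the decapping complex, was at 444 and 470 CPM against 1256 CPM. Of 26 genes for storage and translation control, 4 were higher and 5 lower (median log2 0.35), with Lsm14a, a component of storage granules, at 242 and 231 CPM against 808 CPM and the helicase Eif4a2 at 75 and 81.4 CPM against 303 CPM. Embryonic genome activation markers gave 12 measured genes of 30, with 0 higher and 1 lower, and a median log2 of -0.19 that was 0.11 with library totals. Eif1a was at 10.0 and 6.91 CPM against 53.4 CPM, and Klf4 at 13.0 and 8.09 CPM against 23.4 CPM.

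Of 14 measured DNA methylation genes, 5 were at least 2-fold higher (35.7%) and 1 lower (7.14%), with a median log2 difference of 0.59. Among all described genes these shares were 18.3% and 13.7%. Dnmt3a, the de novo methyltransferase of the oocyte, was at 344 and 292 CPM against 67.3 CPM (log2 2.24 ± 0.47, adjusted p = 0.159), and it passed against in vitro PSMPs, at 58.7 and 88.8 CPM (log2 2.11, adjusted p = 0.0159), while con-in vitro held 1348 and 1382 CPM. Kdm1b, the demethylase needed for maternal imprints, was at 125 and 143 CPM against 295 CPM (log2 -1.14 ± 0.35, adjusted p = 0.228) and below in vitro PSMPs (log2 -1.28, adjusted p = 0.0452). The list of H3K4, H3K9 and H3K27 methylation genes had 28 members, 5 higher and 5 lower, with a median log2 of -0.24 that was 0.06 with library totals. Besides Pcgf6, it held Kdm5c, an H3K4 demethylase, at 116 and 57.0 CPM against 10.2 CPM (log2 3.08 ± 0.57, adjusted p = 0.111), which passed against in vitro PSMPs at 13.5 and 22.3 CPM (log2 2.27, adjusted p = 0.0204), while con-in vitro held 3321 and 3299 CPM.

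Transcripts encoded in mitochondrial DNA gave the lowest median of all lists with at least 4 measured genes. Of 10 measured genes, 8 were at least 2-fold lower in both overexpressing libraries and 0 higher (median log2 -2.19), and the list summed to 1061 and 1322 CPM against 5505 CPM. mt-Cytb, a subunit of complex III, was at 231 and 228 CPM against 1327 CPM (log2 -2.53 ± 0.82, adjusted p = 0.24), and mt-Nd2, of complex I, at 113 and 124 CPM against 577 CPM (log2 -2.29 ± 0.74, adjusted p = 0.24). None passed. The sum was 1229 and 2527 CPM in in vitro PSMPs, also below in vivo PSMPs, and it differed widely within groups, from 8709 to 19842 CPM in con and from 1865 to 5337 CPM in SAHA. The 76 nuclear genes of oxidative phosphorylation did not follow, with 8 higher and 2 lower and a median log2 of 0.27, among them Cox8a at 119 and 113 CPM against 319 CPM and Ndufa4 at 31.2 and 29.0 CPM against 117 CPM.

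Of 22 genes of glycolysis and pyruvate entry, 3 were at least 2-fold higher and 6 lower (median log2 -0.57). Dlat and Dld, subunits of the pyruvate dehydrogenase complex, were at 37.9 and 33.7 CPM against 127 CPM and at 59.0 and 77.7 CPM against 239 CPM (adjusted p = 0.232 and 0.239). The tricarboxylic acid cycle, with 17 genes, had 2 higher and 2 lower (median log2 0.43). Mdh1 was at 83.2 and 66.7 CPM against 203 CPM and Idh3a at 74.4 and 65.9 CPM against 163 CPM, and both were lower than in in vitro PSMPs (adjusted p = 0.0279 and 0.0437). Fatty acid oxidation, with 22, had 4 higher and 5 lower, with a median log2 of 0.21 that was -0.56 with a minimum count of 50. Etfa, an electron carrier of that pathway, was at 78.0 and 77.4 CPM against 200.1 CPM, and the dehydrogenase Acadm at 22.6 and 12.7 CPM against 118 CPM. Cholesterol synthesis, with 22, had 1 higher and 1 lower (median log2 0.06). Msmo1, a sterol oxidase, was at 9.83 and 14.2 CPM against 67.9 CPM, and Insig1, which restrains that pathway, at 770 and 359 CPM against 245 CPM. For nucleotide, serine and one-carbon synthesis, with 25, the counts were 1 and 5 (median log2 0.13). Ctps, the CTP synthase, was at 150 and 145 CPM against 559 CPM (log2 -1.92 ± 0.40, adjusted p = 0.159) and Rrm1, of ribonucleotide reductase, at 43.8 and 38.9 CPM against 138 CPM.

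Genes of ribosomes, proteasomes and spliceosomes were at least 2-fold higher in shares near that of all described genes (18.9%, 21.9% and 22.2% against 18.3%). Of 74 cytosolic ribosomal protein genes, 14 were at least 2-fold higher and 5 lower, and 54 lay above in vivo PSMPs in both libraries, with a median log2 difference of 0.45. Their summed level was 11634 and 12113 CPM in the overexpressing libraries and 9003 CPM in in vivo PSMPs, against 2180 and 1693 CPM in in vitro PSMPs. By this sum the overexpressing libraries were closer to the oocytes exposed in the animal. Rps29 was at 195 and 258 CPM against 62.0 CPM and Rps2 at 9.83 and 1.46 CPM against 93.7 CPM, but ribosomal protein genes have near-identical pseudogenes and single members are uncertain. The 32 proteasome subunits had 7 higher and 1 lower (median log2 0.29), with Psmd11 at 122 and 94.3 CPM against 11.5 CPM and Psma1 at 107 and 102 CPM against 255 CPM. Core splicing genes, 36 in number, had 8 higher and 4 lower (median log2 0.44), with Snrnp70 at 120 and 104 CPM against 14.5 CPM and Srsf2 at 23.6 and 21.3 CPM against 112 CPM.

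Stress and cell death lists held genes in both directions. Of 24 p53 and DNA damage checkpoint genes, 7 were at least 2-fold higher (29.2%) and 3 lower (12.5%), with a median log2 of 0.51. Among all described genes these shares were 18.3% and 13.7%. Cdkn1b (p27), an inhibitor of cyclin-dependent kinases, was at 62.8 and 42.4 CPM against 4.28 CPM (log2 3.62 ± 0.87, adjusted p = 0.172), and it passed against in vitro PSMPs, at 2.76 and 5.17 CPM (log2 3.73, adjusted p = 0.0184), while con-in vitro held 2271 and 2435 CPM. H2ax, the histone variant phosphorylated at DNA breaks, was at 81.3 and 72.0 CPM against 14.6 CPM. Bcl2 family and caspase genes, 15 measured, had 1 higher and 4 lower, with Apaf1, the scaffold of the apoptosome, at 7.61 and 6.09 CPM against 87.6 CPM (log2 -3.67 ± 0.92, adjusted p = 0.183) and Casp9 at 7.68 and 8.64 CPM against 30.3 CPM. Their median log2 was -0.18, and 0.12 with library totals. Of 29 genes of endoplasmic reticulum stress, 4 were higher and 2 lower, with the sensor Ern1 at 231 and 237 CPM against 843 CPM and the chaperone Hyou1 at 71.2 and 42.3 CPM against 8.64 CPM. Their median log2 was -0.14, and 0.16 with library totals.

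Antioxidant genes, 25 measured, had 2 at least 2-fold higher and 3 lower, with a median log2 of -0.27 that was 0.03 with library totals. Slc7a11, the cystine carrier, was at 92.3 and 118 CPM against 226 CPM, and Gclc, which makes the precursor of glutathione, at 15.0 and 10.4 CPM against 76.1 CPM. Core autophagy genes, 31 measured, had 2 higher and 4 lower, with a median log2 of -0.13 that was 0.17 with library totals. Wipi1 was at 4.49 and 3.73 CPM against 45.9 CPM and Atg16l1 at 184 and 169 CPM against 390 CPM. Of 25 genes of mitochondrial fusion, fission and biogenesis, 3 were higher and 3 lower (median log2 0.06). Timm23, a channel of mitochondrial protein import, was at 28.8 and 21.6 CPM against 132 CPM (log2 -2.39 ± 0.43, adjusted p = 0.111) and passed against in vitro PSMPs (log2 -2.04, adjusted p = 0.0208).

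**Figure D4:**
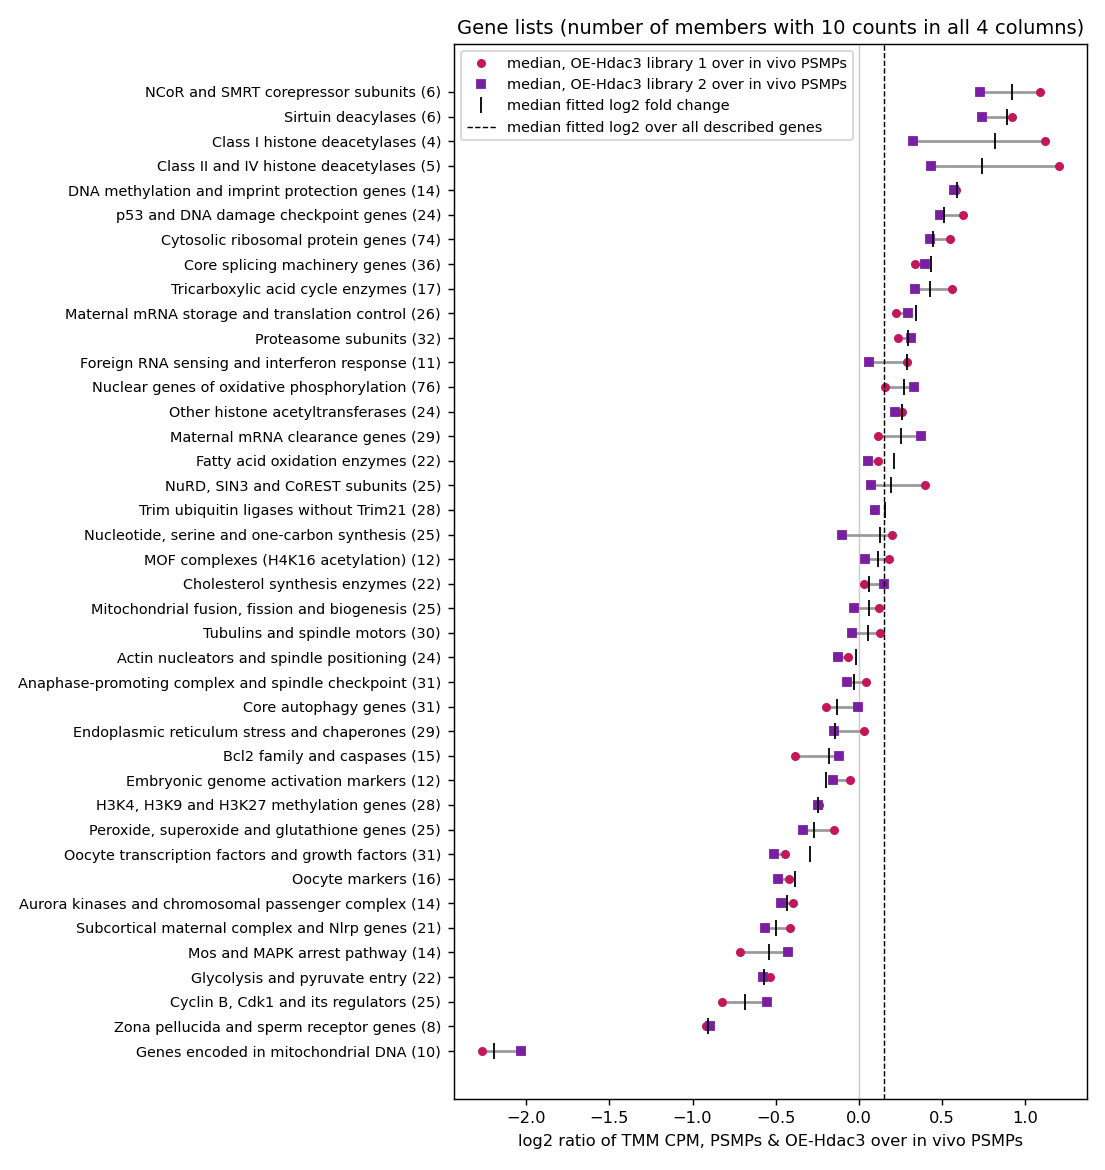
Median log2 ratio of level over in vivo PSMPs for each gene list with at least 4 described genes, shown for PSMPs & OE-Hdac3 library 1 (circles) and library 2 (squares), with the median fitted value (ticks) and the median of all described genes (dashed line, 0.15). Most lists lie within 1 log2 unit of that line, and genes encoded in mitochondrial DNA lie lowest, at -2.19.

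Markers of other cell types of the ovary were mostly low, and the granulosa markers differed between the groups. Of 23 cumulus and granulosa markers, 2 reached 10 counts in all 4 columns, 15 were under 10 counts in both overexpressing libraries and 9 in both in vivo PSMPs columns. Their sum was 228 and 234 CPM against 619 CPM, and most of it was Serpine2, at 208 and 213 CPM against 478 CPM. Inha, the inhibin subunit, was at 0.521 and 0.0909 CPM against 59.4 CPM, and Cyp11a1, the first enzyme of steroid synthesis, at 0.130 and 0.0909 CPM against 20.0 CPM. Kitl, the ligand of the Kit receptor, lay the other way, at 3.38 and 5.46 CPM against 0.0516 CPM. These genes were chosen after their values were seen. Fshr, the receptor of follicle-stimulating hormone, was at 0.390 and 0.909 CPM against 0.309 CPM, and Amh had 0 and 0 counts against 1 and 1. Raw counts of Gja1 were 22 and 2 against 521 and 518, and those of Amhr2 1 and 0 against 186 and 184. Fst, Hsd3b1, Vcan, Star, Inhba, Inhbb and Foxl2 also had fewer counts in both overexpressing libraries than in in vivo PSMPs, whose columns were deeper. Besides Kitl, only Has2, Tnfaip6 and Areg had more counts in an overexpressing library, each under 10. Inha had 0 counts in con and con-in vitro, 3 and 3 in in vitro PSMPs and 27 and 17 with SAHA. Amhr2 had 0 counts in these groups. Both were thus nearly confined to in vivo PSMPs. Cyp11a1 differed, with 220 and 178 counts in con, and Gja1 had 164 and 8 in con-in vitro. Serpine2 stood at 796 and 525 CPM in con, where Inha and Amhr2 had 0 counts, so the sum above need not follow those markers. Stromal, theca and endothelial markers, 13 in all, summed to 15.2 and 20.3 CPM against 67.8 CPM. Most of it was Pecam1, at 11 and 14.1 CPM against 56.6 CPM, with Krt8 at 2.41 and 4.09 CPM against 8.43 CPM. Pecam1 was also at 93.8 and 49.8 CPM in con. Of 14 blood and immune markers, 1, Cd68, was measured, at 0.846 and 1.00 CPM against 0.877 CPM, and Lyz2 was at 0 in all 4 columns. The part of these cells in the differences above was not tested.

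The difference between the controls, con-in vitro against con, shares no library with the comparison, and it varied along with it across genes (Pearson's r 0.27, Spearman's rho 0.33 over 11946 genes, which are not independent replicates and share the scaling of libraries and the length of genes). Of 1491 genes over log2 4 higher in con-in vitro than in con, 37.5% were at least 2-fold higher in both overexpressing libraries and 3.76% lower. Among 1457 genes between log2 -4 and -2, 9.40% were higher and 28.4% lower, but among the 954 under log2 -4 the shares were 16.5% and 20.6%, with a median log2 of -0.0064. Levels in these control groups were less reproducible. Over genes with at least 20 counts in a pair, Pearson's r of log2 levels was 0.80 in con-in vitro and 0.77 in con. In the overexpressing pair it was 0.976. Both con-in vitro libraries exceeded every other library for 372 of the 2181 higher genes (17.1%), against 9.84% of all described genes and 3.67% of the lower ones. The higher and lower classes and this count all use the in vivo PSMPs level, so part of the contrast follows from the rule. For these 372, the excess of the overexpressing mean over in vivo PSMPs was a median 9.85% of the con-in vitro level (interquartile range 3.84% to 24.6%). Of the genes named above, Ncoa1 (874 and 1170 CPM), Rhoa (1637 and 1752 CPM), Hyou1 (507 and 1086 CPM), Insig1 (15839 and 12348 CPM) and Sirt6 (1054 and 1684 CPM) were also far higher in con-in vitro than in the overexpressing libraries. Whether culture has a part in the difference between overexpressing and in vivo PSMPs oocytes was not tested.

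**Figure D5:**
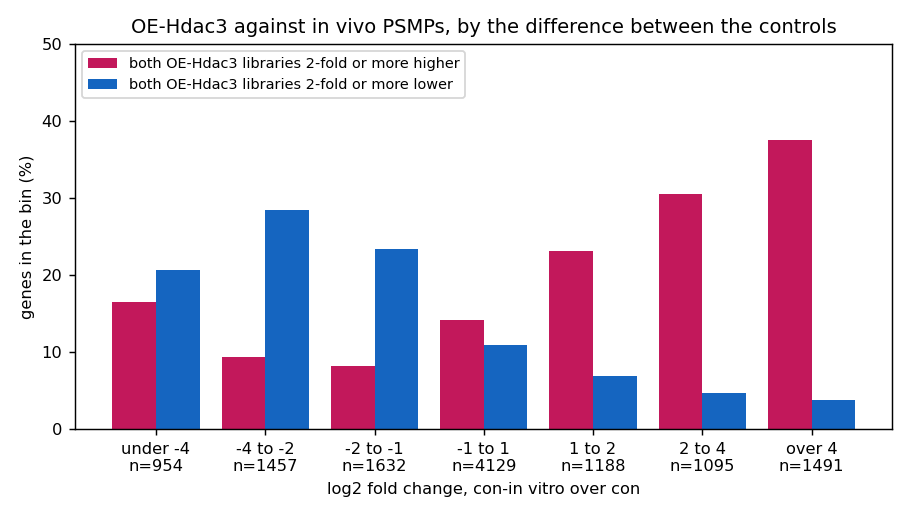
Share of described genes (vertical axis, %) at least 2-fold higher or lower in both PSMPs & OE-Hdac3 libraries than in in vivo PSMPs, in bins of the log2 fold change of con-in vitro over con (horizontal axis, n genes per bin). The higher share is 37.5% in the bin over 4, and the lower share 28.4% in the bin from -4 to -2, while the bin under -4 holds 16.5% higher and 20.6% lower.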

How the data were processed

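RNA sequencing counts were analysed from 12 columns in 6 groups; the H4K16 acetylation libraries of the series were not analysed here. Per the labels, libraries were made from pools of 5 oocytes. The values are raw counts per gene deposited by the authors for 55401 genes, checked to be whole numbers. Build mm10 and the tools featureCounts, HISAT2, DESeq2, Picard, SAMtools, deepTools 3.5.1, Bowtie2 2.2.5 and fastp 0.12.4 are named in the submitters' processing notes, without the role of each.

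Groups were taken from the labels. Genes passed filterByExpr of edgeR (minimum count 10, on the 12 columns), the in vivo PSMPs columns were averaged and rounded, and 11 libraries were scaled by TMM. All groups entered 1 model, a coefficient for each, in edgeR 4.0.16 (R 4.3.3, limma 3.58.1), robust quasi-likelihood, 5 residual degrees of freedom, biological coefficient of variation 71.9%. Each contrast was tested by the quasi-likelihood F test with Benjamini-Hochberg adjustment over 16736 fitted genes and a threshold of 0.05. The procedure was tested on simulated data.

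The members and the 43 gene lists (1100 genes, 1 not in the file) were chosen with earlier results of these data known. Named genes were those past the threshold with at least 10 CPM in the higher group, or, as here where none passed, the 5 described genes of smallest p per direction, leaving out unnamed gene models, together with histone deacetylases, Kat8, Trim21 and 2 genes of smallest p per list. Inha, Cyp11a1, Kitl, Fshr, Amh and the granulosa markers given by raw counts were picked with their values known. So were the genes singled out for their con-in vitro levels and the genes of the promoter comparison. The 2-fold description was added because no gene passed. Symbols shared by several identifiers (217 identifiers) were tested separately. Alternatives were filters, scalings, DESeq2 1.42.0, other sets of libraries, a replicate block and leaving out each column. Promoter sequences came from RefSeq, whose windows matched 23 of the 32 RNA sensing genes.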

Additional observations from a re-analysis of the deposited data

How the results depend on the processing

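The number of genes called in the comparison of PSMPs & OE-Hdac3 with in vivo PSMPs, 0, changed under some alternatives. It stayed 0 with a minimum count of 50, with only the described genes, with DESeq2's size factors, with library totals, without mitochondrially encoded genes and with a fold threshold of log2 1. It was 118 with no filter, 870 with DESeq2's Wald test, 1355 with the in vivo PSMPs columns as 2 libraries, 7464 with only the 2 groups of the comparison in the fit, and, in alternatives added after the data were seen, 460 with bias-adjusted quasi-likelihood and 495 with no con libraries. The count of 1355 rests on near-identical columns entered as replicates, and that of 7464 on 1 residual degree of freedom. Leaving out 1 column gave 0 to 529, above 0 only for the con libraries (243 and 529). The cause of the other changes was not tested.

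Hdac3 was past the threshold at log2 4.45 with no filter, 4.60 by DESeq2, 4.34 with only the 2 groups, 4.47 with in vivo PSMPs as 2 libraries, 4.48 with bias-adjusted quasi-likelihood and 4.39 with no con libraries, and ranged from 4.18 to 4.70 when 1 column was left out. The Trim21 bound, log2 14.68, was past it at 14.81 by DESeq2, 14.54 with only the 2 groups, 15.68 with in vivo PSMPs as 2 libraries, 14.68 with bias-adjusted quasi-likelihood and 14.60 with no con libraries, and ranged from 14.40 to 14.89 when 1 column was left out.

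A replicate block, with in vivo PSMPs as 2 libraries, gave 458 genes, with Hdac3 at log2 4.46 and Trim21 at 15.68, both past the threshold. The replicate numbers did not pair the samples: the correlation of deviations between same-numbered libraries ran from -0.32 to 0.064 over 10 pairs of groups, 0 of them over 0.1.

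Of 2515 values of the genes of the text, main values included, 356 passed the threshold only under an alternative and 7 changed sign. Hdac1 became -0.054 without PSMPs & OE-Hdac3 replicate 1 and ranged up to 1.44 when 1 column was left out. Cd68 became -0.041 with only the described genes, -0.0072 without mitochondrially encoded genes, -0.067 with only the 2 groups, -0.078 without PSMPs & OE-Hdac3 replicate 2, -0.010 without con replicate 2 and -0.010 with no con libraries, and ranged from -0.078 to 0.20 when 1 column was left out. The cause was not tested. Of 1116 medians of gene lists, main values included, 250 moved by at least the standard deviation of the medians of the 2 overexpressing libraries. Across the alternatives, 16 of 43 lists had medians of both signs. These medians were not taken relative to that of all genes, which also shifted with the scaling. In the overexpressing libraries 10 counts were worth 0.651 and 0.909 CPM, so lower levels could not be compared.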
